A study of Mus musculus with 9 samples.

Results

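The genes described here encode the nuclear subunits of respiratory complexes II, III, IV and V, with cytochrome c and the tissue isoforms of complex IV. They were chosen by symbol: Sdha to Sdhd, every symbol starting with Uqcr, Cyc1, Cycs, Cox4 to Cox8 and Atp5. Of the 23412 gene symbols measured, 49 matched, and 48 of them reached a level of 1 TPM (a length-scaled measure of transcript abundance) in at least 3 of 9 libraries. The testis isoform Cox8c was at 0 TPM in all 9 libraries and was the 1 symbol left out. The 48 genes stand among 14336 genes that passed the same filter and were tested. Grouped by symbol, they comprise 4 genes of complex II, 10 of complex III with cytochrome c, 17 of complex IV and 17 of complex V. The complex V counts and medians include Atp5sl, an assembly factor, and those of complex IV include the supercomplex factor Cox7a2l. The subunits encoded by mitochondrial DNA were not analysed here.

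Poly(A) RNA was sequenced from the hippocampus of wild-type (WT) mice at postnatal day 21. In the control group (3 samples) the treatment label is "sham". The exposed groups (3 samples each) nursed from dams that were gavaged daily with 1 mg/kg of perfluorooctane sulfonate (PFOS), a persistent surfactant, either during the first postnatal week, days 1 to 7 (PFOS P1-7), or during the second, days 8 to 14 (PFOS P8-14). The stated question was which postnatal window is the sensitive one. All 3 groups share the WT genotype, tissue and age. Strain, sex and litter, and whether each sample is 1 animal or a pool, are not stated in the labels. P-values therefore measure the spread between these samples, which may in part be technical. Both exposed groups were compared with the same 3 control libraries, so their differences from control are not independent of each other.

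The inner mitochondrial membrane holds these complexes. Complex II, succinate dehydrogenase, is also an enzyme of the tricarboxylic acid cycle and passes electrons from succinate to ubiquinone, complex III passes them from ubiquinol to cytochrome c, and complex IV, cytochrome c oxidase, gives them to oxygen. Complex V, the ATP synthase, uses the resulting proton gradient to make ATP, on which synaptic transmission and ion pumping in the hippocampus depend.

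Because TPM are scaled for transcript length and each library sums to the same total, levels can be compared between genes, but the sequencing depth behind them is unknown. The 48 genes together held between 3.42% and 4.49% of all TPM in a library. Hippocampal neuron markers were present in every library, with the glutamate transporter Slc17a7 at 1302 to 1628 TPM and the granule neuron factor Prox1 at 17.1 to 51.5 TPM. Several measures set libraries apart, within groups and between them. Ttr, the choroid plexus transthyretin gene, was high (9446 to 11626 TPM) in replicate 3 of control, replicates 1 and 3 of PFOS P1-7 and replicates 1 and 2 of PFOS P8-14, and low (35.1 to 108 TPM) in the other 4 libraries. The summed level of 20 choroid plexus markers ranged from 76.0 to 10679.5 TPM in control, 84.6 to 12133 TPM in PFOS P1-7 and 152 to 10223 TPM in PFOS P8-14; 1 of the 20 was at 0 in control replicate 1 and 3 were in PFOS P8-14 replicate 3. Across genes, control replicates 2 and 3 had relatively lower levels of long genes than the other libraries, with a Spearman rho between deviation from the gene mean and transcript length of -0.34 and -0.40, against -0.15 to 0.36 in the other 7. Control replicate 1, at 0.15, was among those 7, so the 2 most negative libraries were controls. The most positive, at 0.36, was PFOS P1-7 replicate 2. The summed level of 6 endothelial markers lay higher in every control (364 to 415 TPM) than in the 6 exposed libraries (297 to 355 TPM), while the mean log2 deviation of the same markers overlapped. Of the blood cell list, 3 markers were measured, and their sum was 1847 to 3092 TPM in control, 1358 to 2629 TPM in PFOS P1-7 and 1167 to 1526 TPM in PFOS P8-14. Within it, the haemoglobin gene Hba-a1 was at 0, 55.9 and 0 TPM in the replicate 1 libraries and at 400.5 to 2333 TPM in the other 6, but it is nearly identical to Hba-a2, so reads can be split between them. Oligodendrocyte markers summed to 9450 TPM in control replicate 1 and to 12789 to 18281 TPM in the other 8 libraries. Prox1 was lowest in control replicates 2 and 3, at 27.4 and 17.1 TPM. The sum of 7 granule neuron markers was 290 and 198 TPM there, the second being the lowest of the 9 libraries. The interneuron gene Pvalb was highest in the same 2 controls, at 91.6 and 96.6 TPM, with 63.9 TPM or less elsewhere. The part of these cells and of the length trend in the group differences given next was not tested, except where a corrected value is printed.

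The most abundant gene of the group was Cox8a, which encodes a small structural subunit of complex IV and stood at 3269 ± 378 TPM (SD, n = 3) in control. Next in control came Atp5k, subunit e of the ATP synthase membrane part, at 2984 ± 485 TPM, and the complex IV genes Cox4i1 at 2564 ± 397 TPM and Cox6a1 at 2388 ± 237 TPM. Their SDs overlap, so the order among Cox8a, Atp5k and Cox4i1 is not resolved by 3 libraries. Complex II genes were lower throughout, from 183 ± 22.1 TPM for the membrane anchor Sdhd to 297 ± 15.7 TPM for the iron-sulphur subunit Sdhb in control. Within complex III, the small accessory subunits Uqcr11 (1782 ± 356 TPM), Uqcr10 (1535 ± 321 TPM) and Uqcrq (1413 ± 214 TPM) stood above the core subunits Uqcrc1 (394 ± 12.2 TPM) and Uqcrc2 (212 ± 19.6 TPM) in control. Cycs, the electron carrier cytochrome c, was the lowest of that complex at 132 ± 9.56 TPM. In complex V, the catalytic beta subunit Atp5b (1512 ± 72.4 TPM) exceeded the alpha subunit Atp5a1 (948 ± 79.7 TPM), and the lowest gene was Atp5s, coupling factor B, at 16.8 ± 0.954 TPM. Atp5sl, now named Dmac2 and known as a complex I assembly factor, matched by symbol only and stood at 26 ± 2.46 TPM. The 6 tissue isoforms of complex IV that passed the filter (Cox4i2, Cox6a2, Cox6b2, Cox7a1, Cox7b2 and Cox8b) stayed at or under 22.5 TPM in every library. Pseudogenes named after Atp5c1, Atp5k, Atp5l, Cycs and Uqcrh are annotated, so the values of these 5 genes could hold reads of near-identical copies. Pseudogenes annotated under other names were not searched for, so the same could hold for the other genes.

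**Figure D1:**
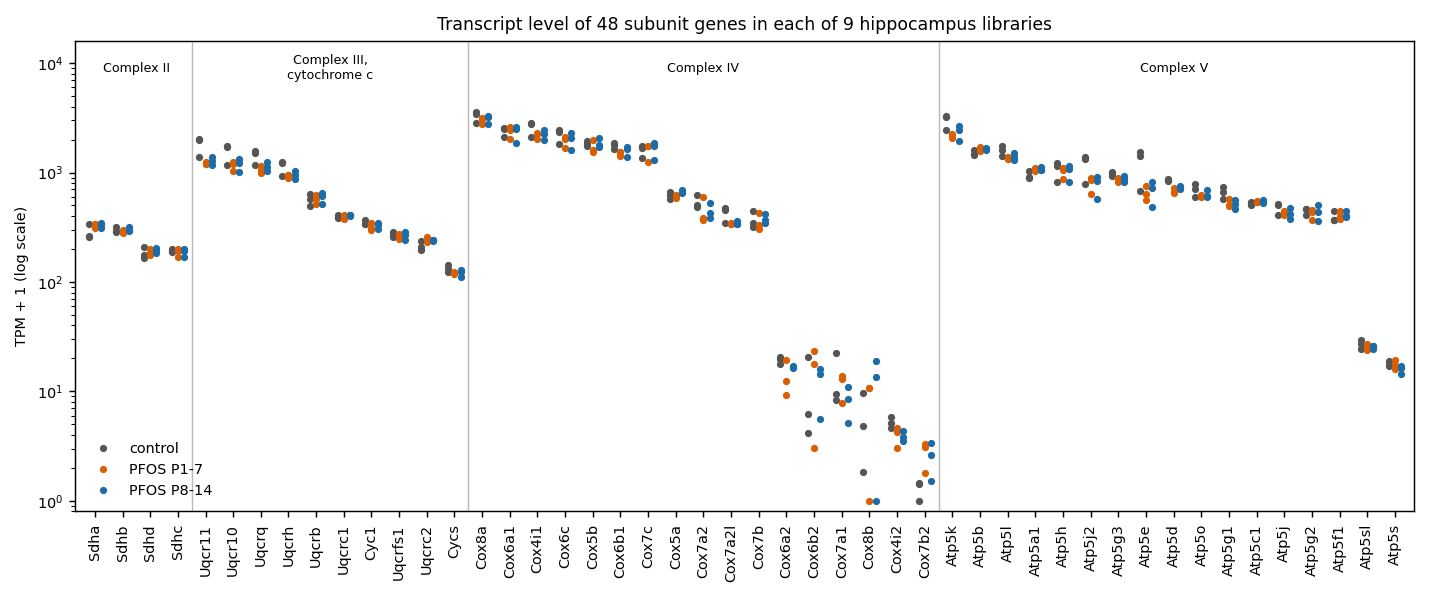
Transcript level of each of the 48 genes (TPM + 1, log axis) in the 9 hippocampus libraries, with genes ordered by complex and mean level and 1 point a library, coloured by group. Cox8a is the highest, at 2756 to 3573 TPM, and the 6 tissue isoforms of complex IV with Atp5s and Atp5sl lie at or under 28.5 TPM.

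Proximal promoters are shown for Atp5k and Uqcr11, short genes with low values in the exposed groups, and for Cox6b2 and Cox8b, which followed choroid plexus markers. RefSeq (GRCm38.p6) gave promoters for 35 of the 48 genes and for 10551 tested genes; each is the 250 bases before the annotated start, 5′ to 3′ on the gene's strand, here the minus strand for all 4. Capitals mark exact matches, on either strand, to GCGCATGC (NRF1), CCGGAAGT (GABPA) or TAATCC (OTX2). NRF1 and GABPA are known regulators of nuclear respiratory genes, and OTX2 is a choroid plexus factor.
Atp5k, chr5:108434400-108434649, the NRF1 match read on both strands: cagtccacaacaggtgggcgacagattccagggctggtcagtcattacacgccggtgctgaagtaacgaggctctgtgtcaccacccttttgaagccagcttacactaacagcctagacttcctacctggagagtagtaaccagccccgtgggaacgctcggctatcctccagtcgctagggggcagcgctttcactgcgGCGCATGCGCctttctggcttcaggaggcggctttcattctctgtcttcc
Uqcr11, chr10:80406822-80407071, a GABPA match: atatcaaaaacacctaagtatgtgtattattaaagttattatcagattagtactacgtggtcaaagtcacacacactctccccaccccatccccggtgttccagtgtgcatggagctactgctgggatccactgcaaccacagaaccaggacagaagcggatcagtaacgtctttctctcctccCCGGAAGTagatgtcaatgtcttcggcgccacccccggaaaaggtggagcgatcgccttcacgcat
Cox6b2, chr7:4753095-4753344, an OTX2 match on the other strand: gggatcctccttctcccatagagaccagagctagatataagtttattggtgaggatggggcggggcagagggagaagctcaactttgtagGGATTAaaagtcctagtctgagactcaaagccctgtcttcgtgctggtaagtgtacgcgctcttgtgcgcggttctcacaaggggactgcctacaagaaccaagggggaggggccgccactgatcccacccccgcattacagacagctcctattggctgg
Cox8b, chr7:140900447-140900696, no match: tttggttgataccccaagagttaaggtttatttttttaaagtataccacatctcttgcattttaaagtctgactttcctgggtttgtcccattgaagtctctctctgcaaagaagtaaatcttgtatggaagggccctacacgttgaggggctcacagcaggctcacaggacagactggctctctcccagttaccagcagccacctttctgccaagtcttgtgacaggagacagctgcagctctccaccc

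The NRF1 letters were found in 6 of the 35 promoters (17.1%), those of Sdhb, Atp5k, Cox6a1, Cycs, Atp5l and Atp5g2, against 4.37% of promoters of tested genes. GABPA letters were in 3 (8.57%, against 5.48%), of Uqcrh, Uqcr11 and Atp5h, and OTX2 letters in 2 (5.71%, against 4.99%), of Cox6b2 and Cox7a2l. AAGATGGC, the YY1 letters, were in 0 of 35, against 1.93%. These matches are a description of letters in a window, and no binding was measured.

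In the comparison of PFOS P1-7 with control, no gene of complexes II to V differed past the threshold, an adjusted p below 0.05 by limma with Benjamini-Hochberg adjustment over all 14336 tested genes (0 of 48, with 0% of all tested genes called). The smallest adjusted p in the group was that of Atp5d at 0.181. At an unadjusted p below 0.05, 13 of 48 had a negative difference, against 5.79% of tested genes, and 2 of 48 had a positive one, against 12.5% of tested genes. Under quantile normalization these were 10 (9.27% of tested genes) and 4 (7.28% of tested genes). Values of the 2 groups did not overlap in 9 genes that were lower after exposure (6.56% of tested genes) and in 2 that were higher (12.3% of tested genes). Differences below 0 were found for 37 of 48 genes, and their median was -0.11 on the log2(TPM + 1) scale, while the median of all tested genes was 0.088. By complex the medians were 0.0016 for II, -0.13 for III with cytochrome c, -0.11 for IV and -0.15 for V; differences between complexes were not tested. Under median-of-ratios scaling, which moved the median of all tested genes to 0.011, they were -0.081, -0.22, -0.19 and -0.24, and that of the 48 genes was -0.19. Single libraries moved them too: complex II from -0.043 without control replicate 2 to 0.070 without control replicate 1, complex IV to -0.21 and complex V to -0.24 without control replicate 1, and complex V to -0.088 without control replicate 2.

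PFOS P8-14 gave 0 of 48 genes past the adjusted threshold of the same limma test (0% of tested genes). At an unadjusted p below 0.05, 8 genes had a negative difference (4.65% of tested genes) and 1 a positive one (6.33% of tested genes). Under quantile normalization these were 8 (6.88% of tested genes) and 3 (4.56% of tested genes). Groups did not overlap in 6 genes that were lower (5.99% of tested genes) and 4 that were higher (7.31% of tested genes). The median difference of the 48 genes was -0.093, with 31 of 48 below 0, and that of all tested genes was 0.058. Medians were 0.055 for complex II, -0.12 for III with cytochrome c, -0.081 for IV and -0.15 for V. With median-of-ratios scaling they were -0.0022, -0.18, -0.14 and -0.21, with -0.15 for the 48 genes and 0.0067 for all tested genes. Complex II ranged from 0.011 without control replicate 2 to 0.12 without control replicate 1, complex IV from -0.19 without PFOS P8-14 replicate 2 to -0.013 without control replicate 3, and complex V from -0.24 without control replicate 1 to -0.10 without PFOS P8-14 replicate 1. The moderated F test for any difference among the 3 groups gave 0 of 48 past the adjusted threshold (0% of tested genes) and 8 at an unadjusted p below 0.05 (11.3% of tested genes). In bulk tissue, fewer cells of a type and less RNA per cell cannot be told apart.

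The number of genes called depended on 1 control library. Without control replicate 1, limma called 16 of 48 genes in PFOS P1-7 against control (3 higher, 13 lower), where it called 18.5% of all tested genes, and 12 of 48 in PFOS P8-14 against control (3 higher, 9 lower), where it called 12.1% of all tested genes. With limma's array weights, which weight libraries by their fit, the counts were 15 of 48 (4 higher, 11 lower) against 20.3% of tested genes, and 8 of 48 (all lower) against 7.35% of tested genes. Leaving out any other single library left all 48 genes uncalled. The summed level of the 48 genes was 36987, 43663 and 44924 TPM in control replicates 1 to 3, 34912, 36917 and 37616 TPM in PFOS P1-7, and 34227, 40551 and 37911 TPM in PFOS P8-14. Control replicate 1 thus lay inside the range of the exposed libraries, and the other controls lay above all 6 of them. Control replicate 3 was the highest of the 9 libraries for 18 of the 48 genes, and PFOS P8-14 replicate 1 the lowest for 17. Control replicates 2 and 3, the high libraries here, are also those with the most negative length trend.

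**Figure D2:**
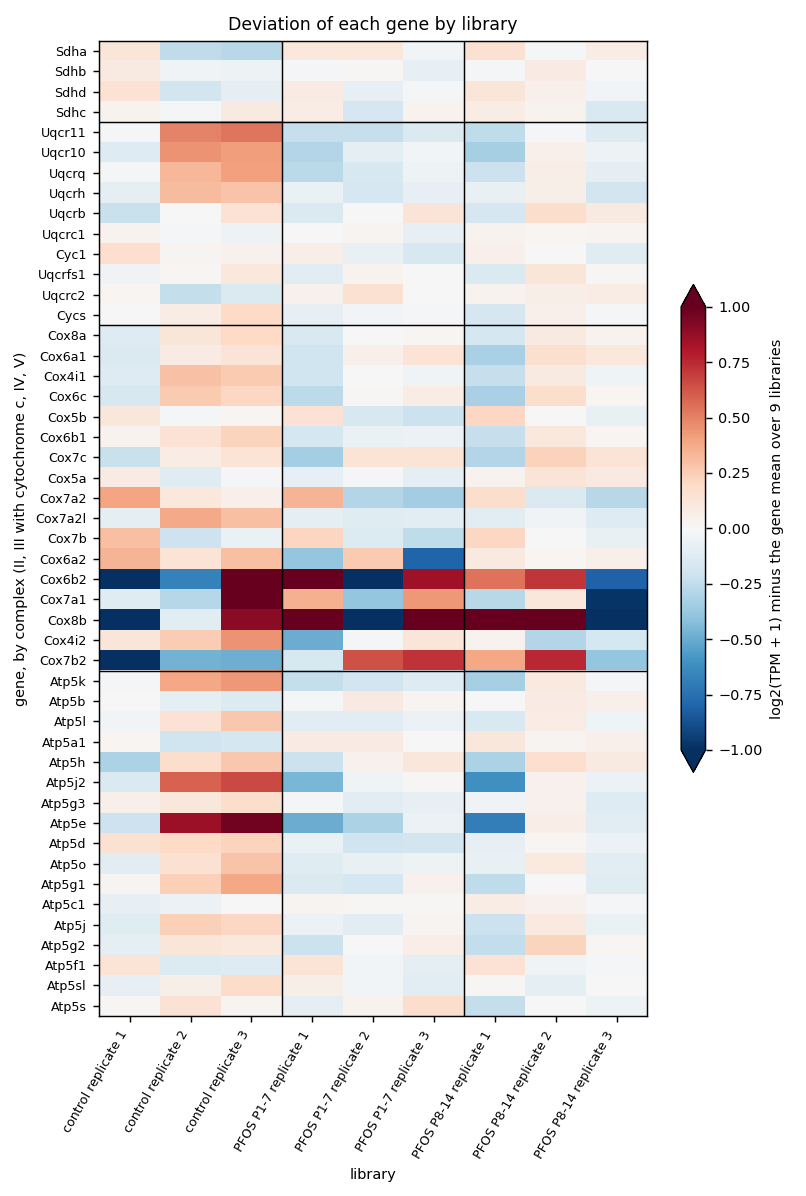
Deviation of each of the 48 genes (rows, by complex) from its own mean over the 9 libraries (columns, by group), as log2(TPM + 1); colours saturate at 1 and -1. Control replicates 2 and 3 stand above the mean for Uqcr11, Uqcr10, Uqcrq, Atp5j2 and Atp5e, whereas control replicate 1 does not, and Cox6b2, Cox7a1 and Cox8b vary between libraries within every group.

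In complex II, no gene separated either exposed group from control. Sdha, the flavoprotein that oxidises succinate, stood at 341, 263 and 259 TPM in the controls, 338, 337 and 307 TPM in PFOS P1-7 and 348, 311 and 331 TPM in PFOS P8-14. Its lowest 2 values were control replicates 2 and 3, while control replicate 1 lay among the exposed libraries, so the groups overlapped. The log2 difference was 0.20 (SE 0.11) for PFOS P1-7 and 0.21 (SE 0.11) for PFOS P8-14, with 95% intervals of -0.046 to 0.44 and -0.035 to 0.45. Without control replicate 1 these were 0.33 and 0.34, with limma adjusted p of 0.0206 and 0.0251. Sdhb differed by -0.030 (SE 0.069) and 0.022 (SE 0.069), and the membrane anchors by -0.055 (SE 0.089) and -0.049 (SE 0.089) for Sdhc and by 0.033 (SE 0.095) and 0.087 (SE 0.095) for Sdhd.

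In complex III, values differed by the role of the subunits. The 5 small accessory subunits had a median log2 difference of -0.38 in PFOS P1-7 and -0.32 in PFOS P8-14, whereas the 4 genes of the core, the Rieske protein and cytochrome c1 had medians of -0.027 and 0.0036; this contrast between subunit classes was seen in the values and not tested. The accessory medians were -0.29 and -0.25 with the length trend removed. Uqcr11, the smallest accessory subunit (chr10:80402997-80406821, mm10), stood at 1372, 1965 and 2010.2 TPM in the controls, 1184, 1185 and 1258 TPM in PFOS P1-7 and 1167, 1374 and 1261 TPM in PFOS P8-14. All 3 PFOS P1-7 values lay under all 3 controls, and control replicate 1 fell just under the highest PFOS P8-14 value. The differences were -0.54 (SE 0.14) and -0.47 (SE 0.14), or 0.688 and 0.72 times the control level, with unadjusted p of 0.00345 and 0.0074 and limma adjusted p of 0.183 and 0.426.

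Uqcrq, a small membrane subunit, stood at 1170.5, 1495 and 1573 TPM in the controls, 980.1, 1061 and 1141 TPM in PFOS P1-7 and 1022, 1238 and 1112 TPM in PFOS P8-14. PFOS P1-7 did not overlap control, and PFOS P8-14 did. The log2 differences were -0.40 (SE 0.12) and -0.32 (SE 0.12). Uqcr10, another small membrane subunit, stood at 1165, 1739 and 1702 TPM in the controls, 1039.9, 1197 and 1253 TPM in PFOS P1-7 and 1010.2, 1319 and 1232 TPM in PFOS P8-14, so control replicate 1 lay inside the range of both exposed groups. Its differences were -0.38 (SE 0.16) and -0.36 (SE 0.16). For Uqcrh, the acidic hinge protein that binds cytochrome c1, they were -0.28 (SE 0.12) and -0.24 (SE 0.12). Uqcrb, named for ubiquinone binding, was the accessory subunit without a negative difference, at 0.021 (SE 0.12) and 0.059 (SE 0.12), but its direction in PFOS P1-7 turned under median-of-ratios scaling (-0.062) and array weights (-0.012).

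Uqcrc2, a core subunit, was the complex III gene with the largest positive difference, and it stood at 234, 195 and 208 TPM in the controls, 237, 256 and 229.5 TPM in PFOS P1-7 and 236, 239 and 243 TPM in PFOS P8-14. Control replicates 2 and 3 were the lowest of the 9 libraries; PFOS P8-14 did not overlap control, whereas control replicate 1 exceeded 1 PFOS P1-7 library. Differences were 0.19 (SE 0.081) and 0.18 (SE 0.081), with unadjusted p of 0.0455 and 0.056. Its partner Uqcrc1 differed by -0.0054 and 0.037, each with an SE of 0.065. The catalytic Rieske protein Uqcrfs1 differed by -0.048 (SE 0.085) and -0.030 (SE 0.085), and cytochrome c1, Cyc1, by -0.13 (SE 0.084) and -0.10 (SE 0.084). Cycs stood at 123, 130.1 and 142 TPM in the controls, 116, 121 and 122 TPM in PFOS P1-7 and 109, 128 and 122 TPM in PFOS P8-14, with differences of -0.14 (SE 0.081) and -0.14 (SE 0.081). All 3 PFOS P1-7 values of Cycs were below control, and 1 PFOS P8-14 value was not.

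The 11 complex IV genes other than the tissue isoforms all had a negative difference in PFOS P1-7 (median -0.11), and 7 of the 11 did in PFOS P8-14 (median -0.081). Under median-of-ratios scaling these were 11 and 10 of the 11 (median -0.20 and -0.14), and under quantile normalization 9 and 6 (median -0.050 and -0.032). Cox7a2l, a factor that joins complexes III and IV in supercomplexes, stood at 344, 477 and 451 TPM in the controls, 342, 337 and 340.1 TPM in PFOS P1-7 and 341, 357 and 334 TPM in PFOS P8-14. Of the 6 exposed values, 5 lay under the lowest control, and the PFOS P8-14 value of 357 TPM lay above control replicate 1. Its differences were -0.30 (SE 0.11) and -0.29 (SE 0.11), with unadjusted p of 0.0217 and 0.0283. Control replicates 2 and 3 were the high libraries: without control replicate 1 the differences were -0.45 and -0.43, with limma adjusted p of 0.0058 and 0.0105.

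Paralogs of complex IV were set side by side. Cox4i1, the widespread form of subunit 4, differed by -0.22 (SE 0.13) and -0.20 (SE 0.13), and Cox4i2, the lung form that is also known from vascular mural cells, by -0.41 (SE 0.19) and -0.42 (SE 0.19) at 4.2 ± 0.595 TPM, 2.96 ± 0.838 TPM and 2.89 ± 0.454 TPM in control, PFOS P1-7 and PFOS P8-14. All PFOS P8-14 values of Cox4i2 lay under the controls. The summed level of 10 markers of pericytes and vascular smooth muscle was 159.8 to 231 TPM in control, 168 to 201 TPM in PFOS P1-7 and 187 to 212 TPM in PFOS P8-14. Cox6a1 differed by -0.024 (SE 0.15) and -0.041 (SE 0.15). Its muscle-type paralog Cox6a2, also known from parvalbumin interneurons, stood at 19.5, 16.8 and 19 TPM in the controls, 11.4, 18.4 and 8.28 TPM in PFOS P1-7 and 16.2, 15.4 and 15.8 TPM in PFOS P8-14. In PFOS P1-7 it was low in replicates 1 and 3 and near the controls in replicate 2, and the differences were -0.57 (SE 0.22) and -0.21 (SE 0.22). Parvalbumin interneuron markers, 7 in all, summed to 439.5 to 471 TPM over the controls and to 453, 534 and 429.8 TPM in PFOS P1-7, so replicate 2 was the highest in both. Pvalb alone stood at 50.25, 91.57 and 96.63 TPM in the controls. It was at 46.26, 63.88 and 54.85 TPM in PFOS P1-7 and at 47.19, 57.2 and 60.69 TPM in PFOS P8-14. Gad1, also in the sum, stood at 204.84 to 274.55 TPM. The part of these cells in the Cox6a2 values was not tested.

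Cox7a2, the liver-type form found in most tissues, differed by -0.29 (SE 0.19) and -0.27 (SE 0.19), and Cox7b by -0.065 (SE 0.15) and 0.038 (SE 0.15). Cox7b2, a testis isoform, stood at 0, 0.44 and 0.42 TPM in the controls, 0.79, 2.11 and 2.3 TPM in PFOS P1-7 and 1.61, 2.36 and 0.53 TPM in PFOS P8-14. All 6 exposed values exceeded the 3 controls, and the log2 differences were 1.06 (SE 0.33) and 0.90 (SE 0.33), but no library exceeded 2.36 TPM and 1 control was listed at 0. Of the 48 genes, Cox7b2 was the 1 whose 6 exposed libraries all lay above control (4.85% of tested genes). No control reached 1 TPM, so Cox7b2 passed the filter through exposed libraries alone. That filter favours a higher exposed level, so the separation is no separate support for a difference. The counts of genes higher after exposure given above include Cox7b2. Cox8a differed by -0.11 (SE 0.12) and -0.081 (SE 0.12), Cox6b1 by -0.23 (SE 0.10) and -0.17 (SE 0.10), and Cox5a, which sits on the matrix side, by -0.046 (SE 0.075) and 0.10 (SE 0.075). The other nuclear subunits, Cox5b, Cox6c and Cox7c, had differences of -0.11 (SE 0.12) and 0.004 (SE 0.12), -0.16 (SE 0.16) and -0.15 (SE 0.16), and -0.019 (SE 0.18) and 0.030 (SE 0.18), and none reached an unadjusted p of 0.05 by limma.

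Complex V held the gene with the smallest p, Atp5d, the delta subunit of the central stalk (chr10:80138698-80145828, mm10). It stood at 834, 859 and 876 TPM in the controls, 716, 654 and 659 TPM in PFOS P1-7 and 710.1, 759.6 and 720.5 TPM in PFOS P8-14. Control values lay close together and above all 6 exposed values, with the PFOS P1-7 libraries lowest on average. The log2 differences were -0.34 (SE 0.071), 95% interval -0.50 to -0.18, and -0.23 (SE 0.071), 95% interval -0.39 to -0.072, which is 0.79 and 0.853 times the control level. Unadjusted p was 0.000771 and 0.00906, and limma adjusted p was 0.181 and 0.426. Leaving out each library in turn moved the differences between -0.38 and -0.32 and between -0.26 and -0.21. With each library's trend on transcript length removed they were -0.33 and -0.22. Atp5d and Atp5g3 were the 2 of 48 genes whose 6 exposed libraries all lay under the 3 controls (3.44% of tested genes).

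The c ring, the rotor that carries protons, has 3 genes for 1 mature protein. Atp5g3 stood at 929, 967 and 1009 TPM in the controls, 883, 826 and 845 TPM in PFOS P1-7 and 873, 920.5 and 819 TPM in PFOS P8-14. Its groups did not overlap, although the gap between control replicate 1 and the highest exposed library was small, and the differences were -0.19 (SE 0.076) and -0.15 (SE 0.076). Atp5g1 stood at 566, 658 and 730.2 TPM in the controls, 503, 492 and 575 TPM in PFOS P1-7 and 466, 557 and 513 TPM in PFOS P8-14, where PFOS P8-14 lay wholly under control and PFOS P1-7 replicate 3 did not. Its differences were -0.31 (SE 0.11) and -0.34 (SE 0.11). Atp5g2 differed by -0.094 (SE 0.13) and -0.047 (SE 0.13).

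Atp5e, the epsilon subunit of the central stalk, had the largest negative difference of the 48 genes in both comparisons, -0.83 (SE 0.30) and -0.79 (SE 0.30). It stood at 682, 1424 and 1542 TPM in the controls, 559.7, 633 and 757 TPM in PFOS P1-7 and 487, 824 and 727 TPM in PFOS P8-14. Control replicates 2 and 3 were far above the other 7 libraries, and control replicate 1 lay within the exposed range, so the groups overlapped. Atp5k, subunit e of the dimerisation region, stood at 2426, 3215 and 3310.4 TPM in the controls, 2078, 2153 and 2241 TPM in PFOS P1-7 and 1952, 2634 and 2436 TPM in PFOS P8-14. PFOS P1-7 lay wholly under control, whereas 2 PFOS P8-14 libraries exceeded control replicate 1, and the differences were -0.45 (SE 0.14) and -0.35 (SE 0.14). Of the neighbouring membrane subunits, Atp5j2 (subunit f) stood at 792, 1319 and 1384 TPM in the controls, 638, 850.5 and 883 TPM in PFOS P1-7 and 570.5, 904 and 841 TPM in PFOS P8-14 and differed by -0.53 (SE 0.24) and -0.58 (SE 0.24), and Atp5l (subunit g) differed by -0.22 (SE 0.097) and -0.17 (SE 0.097). Again control replicates 2 and 3 held the highest values of Atp5j2.

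The alpha, beta and gamma subunits had positive differences, none past the adjusted threshold in the unweighted fit of all 9 libraries. Atp5a1, the alpha subunit, stood at 1039, 895 and 909 TPM in the controls, 1087, 1086 and 1022 TPM in PFOS P1-7 and 1110.4, 1043 and 1061 TPM in PFOS P8-14. Control replicates 2 and 3 were the lowest of the 9 libraries, and control replicate 1 lay under all PFOS P8-14 libraries and above 1 PFOS P1-7 library. The differences were 0.17 (SE 0.081) and 0.18 (SE 0.081), with unadjusted p of 0.0629 and 0.0527. Without control replicate 1 they were 0.24 and 0.25, with limma adjusted p of 0.0397 and 0.0456. With array weights the limma adjusted p of Atp5a1 were 0.042 and 0.0588. Atp5b, the beta subunit, differed by 0.11 (SE 0.076) and 0.12 (SE 0.076), and Atp5c1, the gamma subunit, by 0.065 (SE 0.064) and 0.081 (SE 0.064). In PFOS P1-7 the Atp5c1 difference was under the median of all tested genes, 0.088, and turned to -0.018 under median-of-ratios scaling. In the peripheral stalk, which holds the head still, Atp5f1 (subunit b) differed by 0.052 (SE 0.10) and 0.078 (SE 0.10), Atp5h (subunit d) by -0.060 (SE 0.18) and -0.064 (SE 0.18), Atp5j (factor 6) by -0.15 (SE 0.11) and -0.17 (SE 0.11), and Atp5o (OSCP, the oligomycin sensitivity protein) by -0.20 (SE 0.10) and -0.14 (SE 0.10). None of these 4 reached an unadjusted p of 0.05 by limma, and neither did Atp5s, at -0.023 and -0.16, or Atp5sl, at -0.081 and -0.082.

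**Figure D3:**
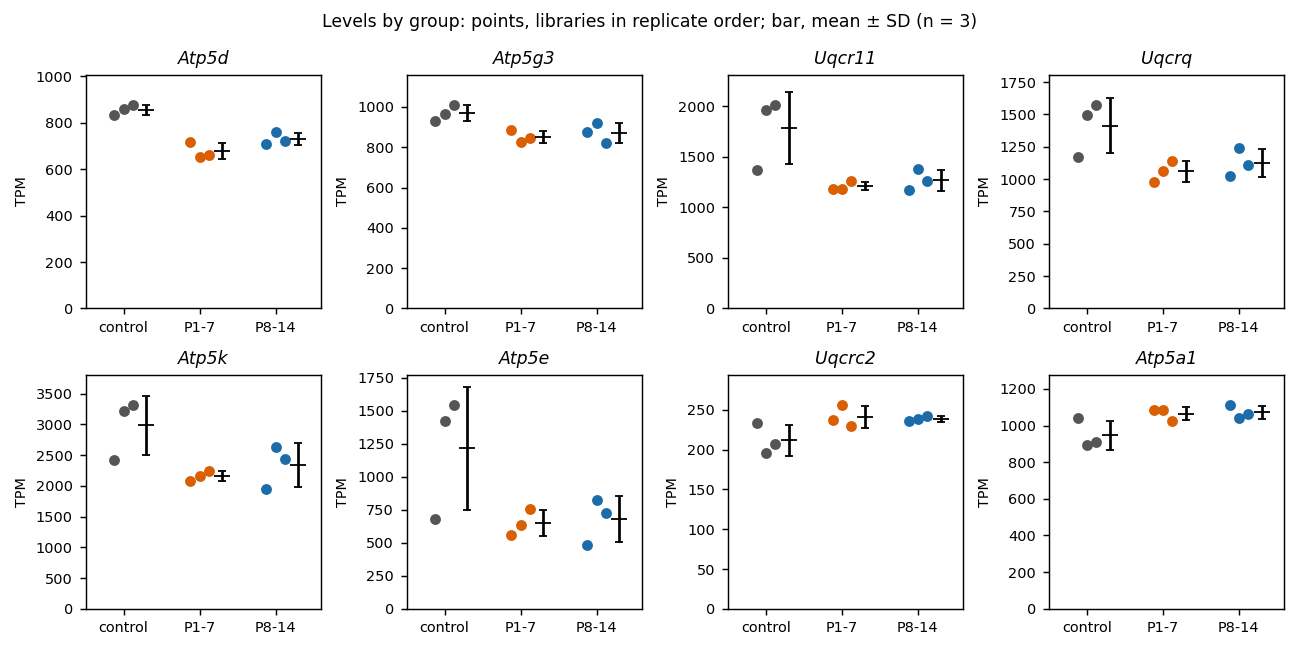
Level (TPM, linear axis from 0) of 8 subunit genes in each library, with points in replicate order within a group and bars for the mean ± SD (n = 3). Atp5d and Atp5g3 separate all 6 exposed libraries from the controls, the small subunits Uqcr11, Uqcrq, Atp5k and Atp5e are high in control replicates 2 and 3, and Uqcrc2 and Atp5a1 are low in the same 2 libraries.

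Transcript length moved with these differences. Short genes had lower values after exposure than long ones: the 18 genes under 600 bases had median differences of -0.17 in both comparisons, the 17 of 600 to 1000 bases -0.15 in both, and the 13 over 1000 bases -0.030 and 0.038. Length is the median over a gene's annotated transcripts, which for Atp5g1 and Cycs includes long ones. Spearman's rho between length and difference was 0.28 and 0.30 across the 48 genes, and 0.38 and 0.33 across the 14202 tested genes with a length; the points share the same libraries and are not independent. After each library's trend on length was removed, the median of the 48 genes was -0.063 and -0.076, against -0.0074 and -0.0096 for all tested genes. The length-corrected limma adjusted p of Atp5d was 0.194 and 0.413, and again 0 of 48 genes passed.

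**Figure D4:**
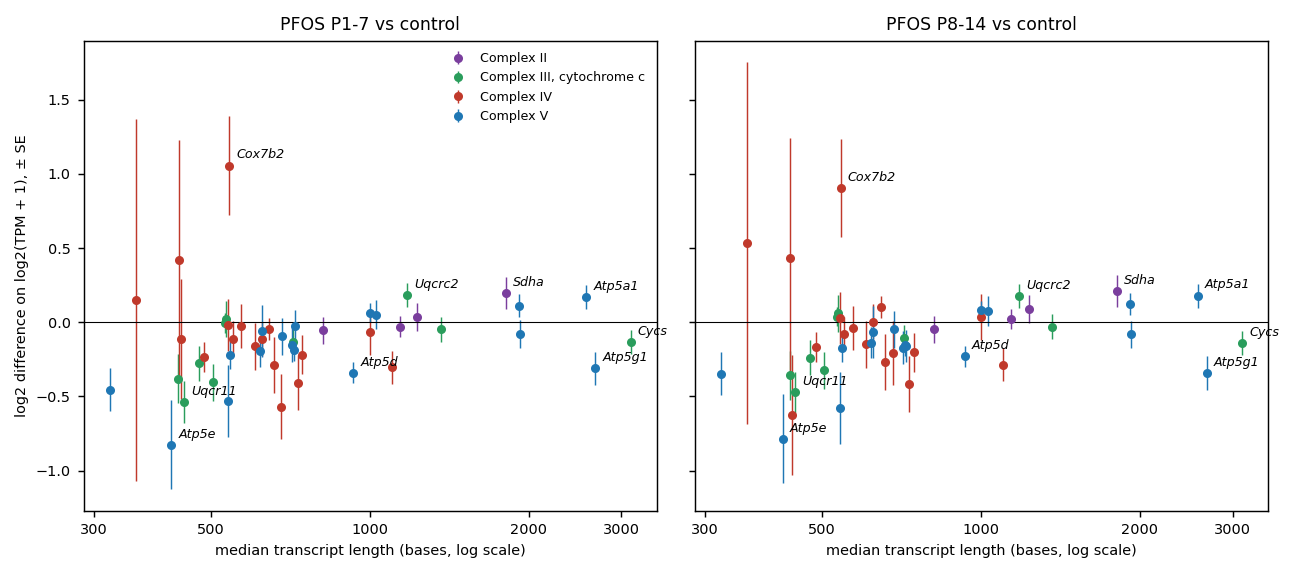
Log2 difference from control (± SE) of each of the 48 genes against its median transcript length (bases, log axis), for PFOS P1-7 and PFOS P8-14, coloured by complex. Points under 1000 bases lie mostly under 0, and the long genes Sdha, Uqcrc2 and Atp5a1 lie above it. Of the 13 genes over 1000 bases, 7 in PFOS P1-7 and 5 in PFOS P8-14 lie under 0, with Atp5g1 at -0.31 and -0.34.

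When the exposure windows were compared directly, PFOS P8-14 against PFOS P1-7, limma called 0 of 48 genes (0% of tested genes), and 0 had an unadjusted p below 0.05 in either direction (0.467% of tested genes higher, 0.635% lower). The groups did not overlap in 1 gene that was higher (1.9% of tested genes) and 0 that were lower (4.15% of tested genes). That gene was Cox5a, at 664, 577 and 623 TPM in the controls, 593, 622 and 587 TPM in PFOS P1-7 and 645, 689 and 668 TPM in PFOS P8-14. The PFOS P8-14 libraries lay above those of PFOS P1-7, and control replicate 1 lay among them. Its difference was 0.15 (SE 0.075), 95% interval -0.017 to 0.32, with an unadjusted p of 0.0733 and a limma adjusted p of 0.9998. The interval was -0.048 to 0.27 around 0.11 for Atp5d and -0.12 to 0.85 around 0.36 for Cox6a2, so differences of that size between the windows were not resolved. The median difference was 0.025 for the 48 genes and -0.029 for all tested genes.

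The 3 largest SEs of the 48 genes belonged to tissue isoforms of complex IV. Cox6b2, a testis isoform of a subunit on the intermembrane side, stood at 3.16, 5.18 and 19.6 TPM in the controls, 22.5, 2.05 and 16.7 TPM in PFOS P1-7 and 13.4, 15.2 and 4.62 TPM in PFOS P8-14. Cox8b, known from heart and skeletal muscle, stood at 0.85, 3.78 and 8.63 TPM in the controls, 9.81, 0 and 9.83 TPM in PFOS P1-7 and 12.6, 18 and 0 TPM in PFOS P8-14, and Cox7a1, another striated muscle form, at 8.37, 7.37 and 21.6 TPM in the controls, 12.1, 6.8 and 12.8 TPM in PFOS P1-7 and 7.43, 10.02 and 4.18 TPM in PFOS P8-14. Each group held high and low libraries of Cox6b2 and Cox8b, and the 5 high ones were the 5 with high Ttr; for Cox7a1 the 2 sets overlapped. Differences from control were 0.42 (SE 0.81) and 0.43 (SE 0.81) for Cox6b2, 0.15 (SE 1.22) and 0.53 (SE 1.22) for Cox8b, and -0.11 (SE 0.40) and -0.63 (SE 0.40) for Cox7a1. The mean log2(TPM + 1) of the 20 choroid plexus markers was entered as a covariate beside the groups, and its slope was read for single genes after the values were seen. The score has 5 high and 4 low libraries, so a slope rests on that split. The slope on the score was positive and passed the threshold in 3 of the 48 genes. The same held for 1.8% of the 14316 tested genes outside the marker list.

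The slope was 0.64 per unit of the score (SE 0.072, limma adjusted p 0.0016) for Cox6b2, 0.96 (SE 0.12, adjusted p 0.0025) for Cox8b and 0.30 (SE 0.053, adjusted p 0.0226) for Cox7a1. With the length trend removed as well, the limma adjusted p were 0.0015, 0.0028 and 0.0308. The widespread paralogs Cox6b1, Cox8a and Cox7a2 had adjusted p of 0.947, 0.983 and 0.732 in the same limma fit. Of 6 striated muscle markers, Ckm (up to 0.11 TPM), Myh6 (up to 0.08 TPM) and Mb (up to 1.08 TPM) were at or near 0, while Actn2 stood at 11.2 to 18.8 TPM, Acta1 at 7.76 to 13.4 TPM and Tnnt2 at 2.95 to 5.14 TPM in every library. Their summed level, 24.7 to 33.8 TPM, came mostly from Actn2 and Acta1. The ependymal markers, 8 in all, were high in the same 5 libraries as the choroid plexus markers. They summed to 157 to 229 TPM there and to 70.3 to 98.5 TPM in the other 4, so the score cannot tell choroid plexus and ependyma apart. Which cells held the Cox6b2, Cox8b and Cox7a1 transcripts was not tested. With the covariate, the differences of PFOS P1-7 and PFOS P8-14 from control turned to -0.57 and -0.46 for Cox6b2 and to -1.33 and -0.81 for Cox8b, and were -0.57 and -1.04 for Cox7a1; none of them passed the threshold.

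**Figure D5:**
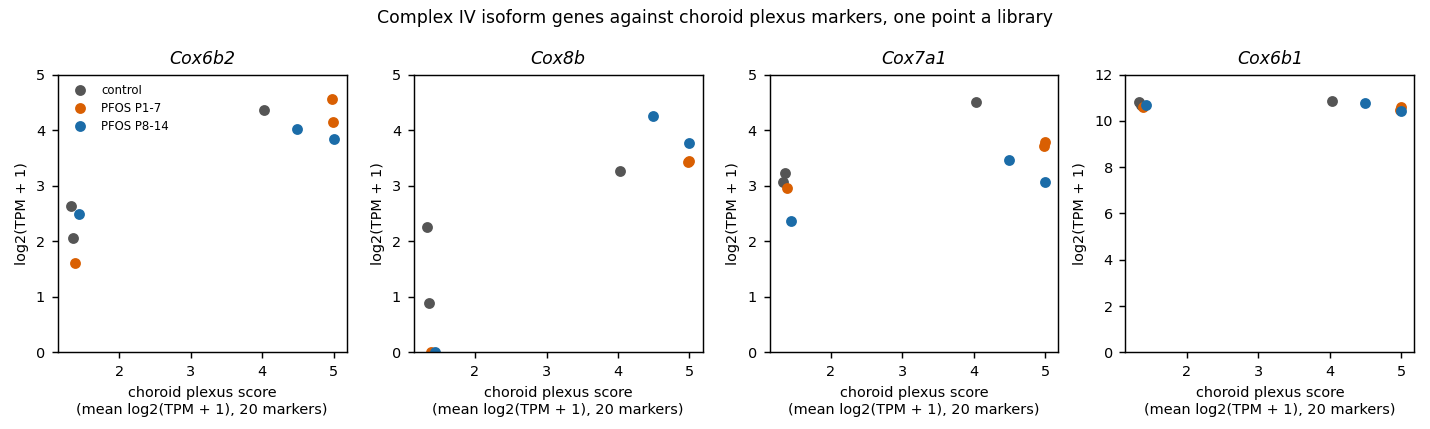
Level of Cox6b2, Cox8b, Cox7a1 and the widespread paralog Cox6b1, as log2(TPM + 1), against the choroid plexus score (mean log2(TPM + 1) of 20 markers), with 1 point a library coloured by group. Cox6b2 and Cox8b are higher in the 5 libraries with scores of 4.03 or more than in the 4 with scores of 1.32 to 1.43, and Cox6b1 lies level across them.

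Genes that act with these complexes were read from lists, and limma called 0 genes of any list in either comparison. Of 37 Nduf genes listed under complex I, 29 had a negative difference in PFOS P1-7 (median -0.17) and 27 in PFOS P8-14 (median -0.096). Negative at a limma unadjusted p below 0.05 were 10 and 7 of them (5.79% and 4.65% of tested genes). Positive at that p were 1 and 2 (12.5% and 6.33% of tested genes). Under median-of-ratios scaling the complex I medians were -0.25 and -0.15, and under quantile normalization -0.11 and -0.057. Ndufb5, a membrane arm subunit, stood at 206, 238 and 245 TPM in the controls, 172, 164 and 167 TPM in PFOS P1-7 and 170.3, 183 and 171 TPM in PFOS P8-14, and all 6 exposed values lay under the controls (3.44% of tested genes). Of 30 tested assembly factors for complexes II to V, 18 and 16 were below 0 (median -0.018 and -0.029, or -0.099 and -0.083 under median-of-ratios scaling). Among these factors, 2 and 2 were higher at a limma unadjusted p below 0.05 (12.5% and 6.33% of tested genes). Lower at that p were 2 and 1 of the factors (5.79% and 4.65% of tested genes). The smallest p among them was that of Coa3, needed for Cox1 synthesis, at 225, 287 and 261 TPM in the controls, 202, 189.5 and 199 TPM in PFOS P1-7 and 188, 224 and 188 TPM in PFOS P8-14. All 6 exposed values of Coa3 lay under the controls (3.44% of tested genes), that of PFOS P8-14 replicate 2 by less than 1 TPM.

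The 13 tricarboxylic acid cycle enzymes had mostly positive differences, with 12 of 13 above 0 in both comparisons. Their medians were 0.14 and 0.12, against 0.088 and 0.058 for all tested genes. Of the 14336 tested genes, 9392 and 8904 were above 0. At an unadjusted p below 0.05 by limma, 1 enzyme in each comparison was higher (12.5% and 6.33% of tested genes) and 0 were lower. The higher ones were Sucla2 in PFOS P1-7, at 0.17 (SE 0.072), and Suclg2 in PFOS P8-14, at 0.30 (SE 0.13). Under median-of-ratios scaling 10 and 9 of the 13 were above 0 (median 0.056 and 0.068), and with the length trend removed 10 and 12 (median 0.037 and 0.055). Among 17 regulators of mitochondrial biogenesis, 14 and 9 were above 0 (median 0.11 and 0.047). These medians were 0.032 and -0.0081 under median-of-ratios scaling and 0.015 and -0.016 under quantile normalization. Of the regulators, 3 and 0 were higher at a limma unadjusted p below 0.05 (12.5% and 6.33% of tested genes). In each comparison 1 was lower at that p (5.79% and 4.65% of tested genes). Below 0 were 3 and 8 of the 17 regulators. Esrra, the estrogen-related receptor alpha that drives respiratory genes, was among them and had the smallest p of the list in both comparisons. It stood at 68.2, 65.2 and 68.6 TPM in the controls, 59.8, 53.6 and 57.3 TPM in PFOS P1-7 and 59, 54.9 and 53.2 TPM in PFOS P8-14. All 6 exposed values lay under the controls (3.44% of tested genes). The differences of Esrra were -0.24 (SE 0.074) and -0.27 (SE 0.074), with limma adjusted p of 0.209 and 0.426. The 7 ATP and phosphate carriers and pores had medians of -0.023 and 0.00073, and the 6 tested inhibitor and supercomplex factors -0.074 and -0.032; under median-of-ratios scaling these were -0.11 and -0.056, and -0.16 and -0.089.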

How the data were processed

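RNA was extracted with the RNeasy Lipid Tissue Mini Kit and libraries were made with the TruSeq stranded mRNA kit, per the labels' protocols. The submitters' processing notes name genome build mm10 and, as software, RSEM 1.3.3, STAR 2.5.3a, fastp 0.21.0 and bcl2fastq; no source used here gives their settings or the gene annotation. The authors deposited TPM per gene symbol, rounded to 2 decimals, with 1 column per sample. TPM keep no read counts, so no count model or counting interval was used. No 2 libraries held identical values.

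Genes that reached 1 TPM in 3 or more of the 9 libraries were tested on log2(TPM + 1) with limma 3.58.1 in R 4.3.3, with 1 mean per group, a shared variance and a mean-variance trend. P-values are two-sided and were adjusted over all 14336 genes by the Benjamini-Hochberg method, with a threshold of 0.05. A test on simulated data, adjusted over 14336 genes, recovered 89% of 2-fold and 48% of 1.5-fold shifts in PFOS P1-7 against control. The shifts were placed only in a sample of the more highly expressed genes. Noise was drawn independently for each gene, without the effects that genes of 1 library share. These shares therefore do not give the power in the real data. The genes and lists were chosen with earlier results of these data known, so lists are described by counts and medians only. Genes named for a difference were, in each comparison, the 2 of smallest p in each direction in complexes III, IV and V. In complex II it was 1 in each direction. All paralogs and the highest and lowest gene of each complex were named too, and others are given to complete a complex. Pathway genes are those of smallest p in their list: Ndufb5, Coa3 and Esrra by library, Sucla2 and Suclg2 by difference. Other leading genes of the lists are not shown. Transcript lengths came from GENCODE vM21 and matched 99.1% of tested genes. Gene positions and promoters came from RefSeq for GRCm38.p6, the same assembly as mm10.

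Alternatives were pseudocounts of 0.1 and 5, other filters, median-of-ratios and quantile scaling, a replicate block, array weights, other moderation, only the compared groups, removal of the length trend, a covariate for the choroid plexus score, a threshold of 0.1 and leaving out each library. The score and length corrections together, and the slope on the score, were chosen after seeing the data. Figures used matplotlib 3.10.9.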

Additional observations from a re-analysis of the deposited data

How the results depend on the processing

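No alternative other than array weights and the fit without control replicate 1 called any of the 48 genes. Array weights called 2914 genes in PFOS P1-7 against control, 1053 in PFOS P8-14 against control and 1532 by the F test, of which 15, 8 and 10 were among the 48. Leaving out 1 library gave 0 to 2658, 0 to 1741 and 0 to 1493 genes, and 0 to 16, 0 to 12 and 0 to 11 of the 48; every upper value is without control replicate 1. Without PFOS P8-14 replicate 1, 1 gene was called in PFOS P1-7 against control. The median difference of the 48 genes was -0.19 under median-of-ratios scaling in PFOS P1-7, and -0.17 to -0.036 on leaving out 1 library in PFOS P8-14. The cause of these shifts was not tested.

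Directions turned only for differences that passed no test, in at least 1 setting for 16 of the 48 genes in PFOS P1-7 against control, 14 in PFOS P8-14 against control and 35 between the windows. All but 3, 2 and 2 of these were under 0.1 in size, the exceptions being Cox6b2, Cox8b and Cox7a1, then Cox6b2 and Cox8b, then Cox7b2 and Cox8b. Cox8b turned in both comparisons with control with the score as covariate (-1.33 and -0.81), a pseudocount of 0.1 (-0.57 and -0.16) and without control replicate 1 (-0.47 and -0.091), and Cox7a1 was 0.34 in PFOS P1-7 without control replicate 3. In PFOS P1-7 against control, Cox6b2 was -0.57 with the choroid plexus score as covariate, -0.44 with the length trend removed as well, and -0.14 to 1.33 on leaving out 1 library. Uqcrb was -0.062 under median-of-ratios scaling, -0.012 with array weights and -0.078 to 0.11 on leaving out 1 library, and Sdhc was -0.10 to 0.018. In PFOS P8-14 against control, Cox6b2 was -0.46 with the covariate, Sdhc was -0.095 to 0.021 on leaving out 1 library, and Uqcrc1 was -0.020 under median-of-ratios scaling. Between the windows, Atp5g1 was 0.0021 with the length trend removed, 0.0063 with both corrections and -0.095 to 0.038 on leaving out 1 library. Cycs was 0.023 under median-of-ratios scaling, 0.023 with array weights, 0.033 with the length trend removed, 0.034 with both corrections and -0.051 to 0.059 on leaving out 1 library. Uqcrc2 was 0.016 under median-of-ratios scaling, 0.0018 with array weights and -0.044 to 0.034 on leaving out 1 library, and Cox7b2 was -0.43 to 0.17.

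With the replicate number as a block, 0 genes and 0 of the 48 were called in any test. Same-numbered libraries deviated together in 5 of 9 pairs (correlations of deviations from the group means over genes from -0.47 to 0.53, over 0.1 in those 5) and not in every pair, so the numbers were not taken to pair the samples. The labels give no shared litter, batch or day, and the replicate 1 libraries are described further among the other observations.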

Other observations

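The 3 libraries numbered replicate 1 lay together across groups in some of the 48 genes, a pattern noticed after the values were seen. In 7 genes all 3 of them lay above the other 6 libraries (14.6%, against 6.59% of the 14336 tested genes): Sdha, Sdhd, Cyc1, Cox5b, Cox7a2, Cox7b and Atp5f1. In 11 genes all 3 lay under the other 6 (22.9%, against 4.62%): Uqcrb, Uqcr10, Uqcrfs1, Cox4i1, Cox6a1, Cox6c, Cox7c, Cox8a, Atp5g2, Atp5h and Atp5j2. Cox7a2, the widespread form of complex IV subunit 7a, stood at 617, 592 and 529 TPM in the replicate 1 libraries of control, PFOS P1-7 and PFOS P8-14, and at 368 to 505 TPM in the other 6. Atp5h, a peripheral stalk subunit of the ATP synthase, stood at 815, 877 and 815 TPM in the same 3 libraries and at 1047 to 1227 TPM in the other 6. Across the 48 genes, deviations from the group means correlated at 0.78 between the replicate 1 libraries of PFOS P1-7 and PFOS P8-14. Control replicate 1 correlated with these at -0.32 and -0.18, so the likeness did not extend to the 48 genes as a set. The labels do not say what the replicate numbers stand for.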
